A study of Homo sapiens with 4 samples.

Results

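Interleukin-1 (IL-1) family cytokines, colony-stimulating factors and thymic stromal lymphopoietin are signals that airway epithelium sends to immune cells. The 10 genes described here were IL1A, IL1B, IL1RN, IL18, IL33, IL32, CSF1, CSF2, CSF3 and TSLP. They were taken by symbol from a table of raw read counts with values for 39634 entries, and each symbol matched 1 entry. The cells were BEAS-2B, an established human bronchial epithelial line, grown in N2B27 medium, a serum-free mixture. Polyadenylated RNA of 2 libraries from cells with a short hairpin RNA (shRNA) against the kinase gene FER was compared with that of 2 libraries from cells with a control shRNA. The first pair is called by its label, shFer, throughout. Nothing states that the numbered replicates were separate cultures, so the p-values speak to the variation among these samples alone, which may be technical.

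FER mRNA itself had 404 and 535 counts in the libraries labelled shFer, against 334 and 459 counts in the control libraries. At a log2 fold change of 0.02 (95% interval -0.37 to 0.40, adjusted p = 0.976, edgeR's quasi-likelihood test), the mRNA level goes against the label. Directions are given as libraries labelled shFer against control. Total counts ran from 21422976 to 25169713 per library. Counts of the mitochondrial chromosome made up 9.62% and 9.37% of the libraries labelled shFer, against 16.9% and 19.4% of the control libraries. Their part in the results below was not tested directly, but fold changes were also computed without that chromosome. Over tested genes, the median absolute log2 difference within the group was 0.117 for the libraries labelled shFer and 0.260 for control.

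The epithelial label was set against marker genes. The keratin genes KRT8 and KRT18 had between 17167 and 49090 counts in every library. The epithelial adhesion gene CDH1 had 222 and 279 counts in the libraries labelled shFer, against 154 and 159 in control (log2 fold change 0.45, adjusted p = 0.239, edgeR's quasi-likelihood test). KRT7, a keratin gene of simple epithelium, was at 211 and 212 CPM (counts relative to the scaled library size) in the libraries labelled shFer and at 309 and 248 CPM in control. Its log2 fold change was -0.40 (adjusted p = 0.169, edgeR's quasi-likelihood test), with -0.23 without control replicate 1 and -0.57 without control replicate 2. Other genes, among them its antisense gene, overlap 7.67% of the exonic bases of KRT7. Of 9 airway epithelial markers 6 were tested, with 3 log2 fold changes above 0 and 3 below. At an adjusted p below 0.05, which 0.646% of all tested genes passed, 0 rose and 0 fell. Rose and fell have this sense for the lists below. The basal cell gene TP63 had at most 8 counts, and the lung lineage gene NKX2-1 had 0 counts in all 4 libraries. Of 9 leukocyte markers, 2 were high enough to be tested, CD14 and ITGAM. The pan-leukocyte gene PTPRC had at most 6 counts in a library, and the T cell gene CD3E had 0. Summed leukocyte markers ran at 23.1 and 22.3 CPM in the libraries labelled shFer and at 28.8 and 21.9 CPM in control. CD14, at -0.27 (adjusted p = 0.546, edgeR's quasi-likelihood test), was at -0.58 without control replicate 2 and at 0.083 without control replicate 1. ITGAM, at 0.35 (adjusted p = 0.562, same test), lay between 0.064 and 0.67 with 1 library left out. Of 6 fibroblast markers, DCN and LUM had 0 counts, and COL1A1, for a collagen chain, was at a log2 fold change of -0.46 (adjusted p = 0.112, edgeR's quasi-likelihood test). COL1A1 was at -0.51 without control replicate 1 and at -0.45 without control replicate 2. It passed in DESeq2 (adjusted p = 0.0431), as did 3.78% of all genes. PDGFRB, a receptor gene of mesenchymal cells, had 779 and 818 counts in the libraries labelled shFer and 587 and 779 in control (0.01, adjusted p = 0.985).

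IL-1α and IL-1β, encoded by IL1A and IL1B, bind the same receptor and start signalling through MYD88 to the transcription factor NF-kB. The antagonist encoded by IL1RN occupies that receptor without signalling. IL-1β and IL-18 are made as precursors that inflammasome caspases cut, and IL-33 is released from damaged barrier cells. Colony-stimulating factors drive growth and survival of macrophages (CSF1), granulocytes and macrophages (CSF2) and neutrophils (CSF3). TSLP, an alarm cytokine of airway epithelium, acts on dendritic and lymphoid cells, and IL32 encodes an inflammatory cytokine that is not related in sequence to the IL-1 family.

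Many cytokine mRNAs carry AU-rich elements in the 3′ untranslated region, built from the pentamer AUUUA, at which decay factors such as the protein of ZFP36 bind. In the GENCODE release 29 transcript with the longest 3′ untranslated region, IL1A, IL1B, CSF2 and CSF3 held at least 3 such pentamers within 30 bases, which 2.97% of 19146 genes did. CSF2 held 5 within 30 bases, and 0.214% of genes held at least as many. The stretches below are shown because they separate CSF2 from the other members. They are written as DNA from 5′ to 3′, with pentamers in capitals, overlapping copies included.
CSF2 (chromosome 5, transcript bases 698 to 727): ATTTATTTATTTATTTATTTAagttcatat
IL1B (chromosome 2, transcript bases 1367 to 1396): ATTTATTTATTTAtttgtttgtttgtttta
IL1A (chromosome 2, transcript bases 1587 to 1616): ATTTAtatatgtATTTAtaaatatATTTAa
CSF3 (chromosome 17, transcript bases 679 to 708): ATTTAtctctATTTAatATTTAtgtctatt
CSF1 held 2 pentamers within 30 bases, IL33 and TSLP held 1, and IL1RN, IL18 and IL32 held 0 anywhere in that region. A match is only a description of the letters.

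The members spanned a wide range of levels. In CPM per kilobase of the length given in the table (RPKM), CSF1 was the highest, at 28.4 and 26.9 in the libraries labelled shFer and 30.7 and 31.0 in control. Next came IL1B (6.70 to 8.92 RPKM over the 4 libraries), IL32 (5.30 to 9.30), CSF2 (4.14 to 8.26) and IL18 (5.29 to 6.61). The ranges of neighbours in this order overlapped, while those of IL1B and IL18 did not. IL1A followed at 2.88 to 3.60 RPKM and TSLP at 0.206 to 0.291 RPKM, and neither range met that of its neighbours in the order. CSF3 reached at most 0.198 RPKM, and IL1RN and IL33 at most 0.0270 and 0.0135. The place of CSF2 differed between the groups. At 4.14 and 4.30 RPKM in the libraries labelled shFer it lay below IL18 (5.29 and 5.94), whereas at 8.26 and 7.43 RPKM in control it lay above IL18 (6.61 and 5.29). The table's lengths sum all exons of a gene, so a gene with short main transcripts is understated.

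Low counts set aside 3 of the 10 members before the test. IL1RN had 2 and 1 counts in the libraries labelled shFer and 0 and 0 in control. IL33 had 1 and 0 counts in the libraries labelled shFer and 0 and 0 in control. A count of 0 allows up to 3 counts, which is 0.132 and 0.113 CPM in the libraries labelled shFer and 0.147 and 0.138 CPM in control, so neither gene was measurable and no fold is given. CSF3 had 10 and 5 counts in the libraries labelled shFer and 6 and 3 in control, and the groups overlapped on the scaled values. Beside the agonists, the receptor antagonist was barely detected. The share of IL1RN was 0.290% (95% Wilson interval 0.0796 to 1.05) and 0.128% (0.0225 to 0.720) among the summed IL1A, IL1B and IL1RN counts in the libraries labelled shFer. In control it was 0 of 534 and 0 of 708 counts. Intervals and floors cover counting error only.

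Of the 7 members tested, 0 passed an adjusted p of 0.05 over all 15336 genes, of which 0.646% passed. At an unadjusted p under 0.05 there were 2 (CSF2 and IL32), against 17.7% of all tested genes. DESeq2 and limma-voom likewise passed 0 members. Of the 7 log2 fold changes, 3 lay above 0 and 4 below, as did 51.9% and 48.1% of those of all tested genes. They ran from -0.89 to 0.52, with a median of -0.02, beside a median of 0.01 over all tested genes. With library totals alone as the scale, 6 of the 7 were above 0 and the median was 0.14, beside 0.18 over all genes. The groups did not overlap for 4 members, with IL1A and IL32 higher and CSF1 and CSF2 lower in the libraries labelled shFer. That was also so for 49.2% of all tested genes, 25.8% higher and 23.4% lower.

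**Figure D1:**
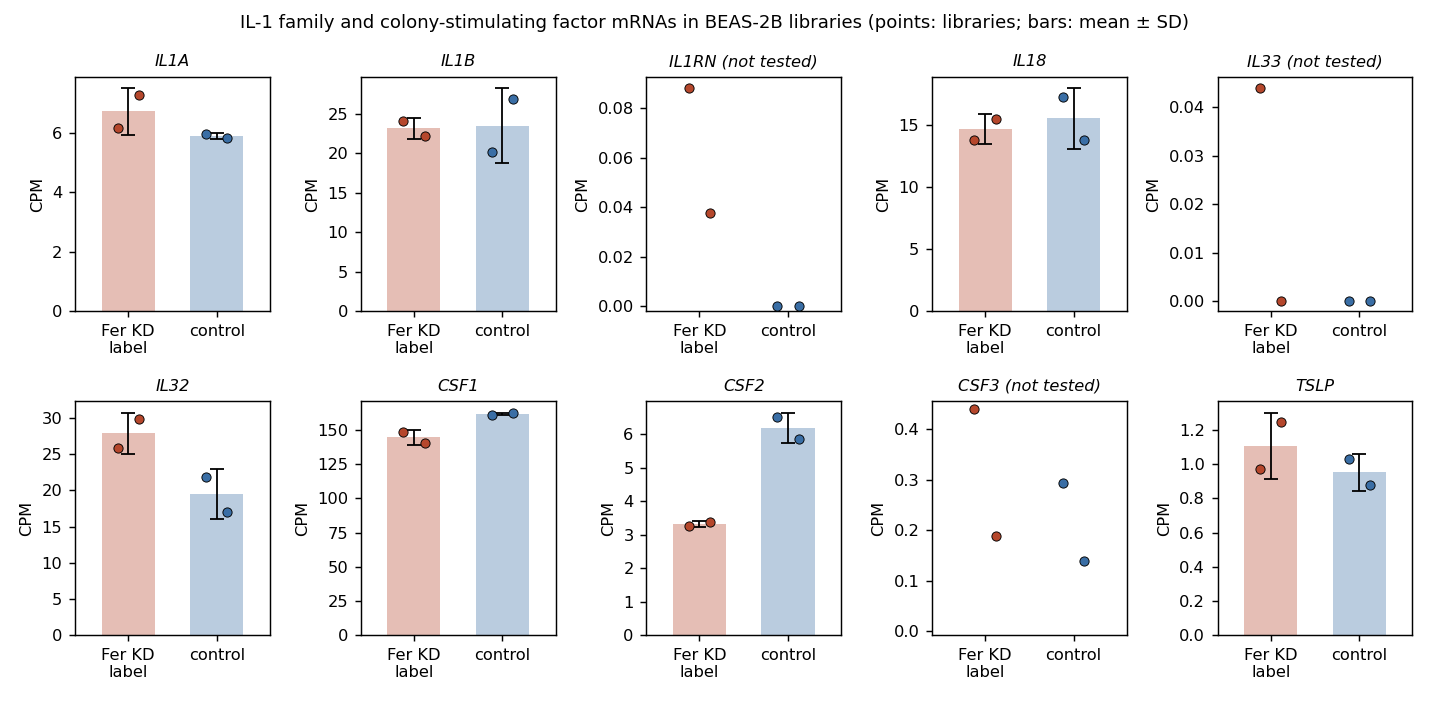
CPM on the TMM scale (y axes, linear, each panel with its own range) of the 10 members in the libraries labelled shFer (left, red) and control (right, blue). Points are libraries, and bars with whiskers are means ± SD of 2 libraries for tested members; CSF2 sits near 3.3 CPM in the libraries labelled shFer and near 6.2 CPM in control, while IL1B overlaps between the groups.

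CSF2, which encodes granulocyte-macrophage colony-stimulating factor, had the largest difference of the members. It had 74 and 90 counts in the libraries labelled shFer, against 133 and 127 counts in control. On the scaled values it was at 3.26 and 3.39 CPM in the libraries labelled shFer and at 6.51 and 5.86 CPM in control. The 2 groups did not overlap, and the gap between them was wider than the gap within either. Means were 3.32 ± 0.0920 CPM in the libraries labelled shFer and 6.18 ± 0.458 CPM in control (SD, n = 2 each). This came to a log2 fold change of -0.89 ± 0.22 (SE; 95% interval -1.39 to -0.39), or 0.539 times the control level. It missed the threshold after adjustment over all genes (adjusted p = 0.0924, edgeR's quasi-likelihood test), at place 424 of the genes in order of p. Across 13 other settings the log2 fold change stayed between -0.99 and -0.73. It passed without control replicate 1 (-0.82, adjusted p = 0.0178) and without control replicate 2 (-0.99, adjusted p = 0.00374), when 29.5% and 20.6% of all genes passed. It did not pass when either library labelled shFer was left out (adjusted p = 0.490 without replicate 1 and 0.555 without replicate 2). No exon of another gene overlaps CSF2.

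The same CSF2 counts can also be given as a share within each library, where no scaling between libraries enters. CSF1 made up most of the sum used, with 3376 of 3460 counts in replicate 1 labelled shFer. The share is therefore not separate support. The share of CSF2 was 2.14% (95% Wilson interval 1.71 to 2.68) and 2.35% (1.91 to 2.88) among the summed CSF1, CSF2 and CSF3 counts in the libraries labelled shFer. In control it was 3.88% (3.28 to 4.58) and 3.48% (2.93 to 4.12). The intervals of the groups did not meet, with nearest ends at 2.88 and 2.93, and they cover counting error only. With 2 libraries a group, an exact two-sided permutation test cannot go below a p of 0.333, so none was used to call the share.

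CSF1, the macrophage growth factor and the most abundant member, was at 149 and 141 CPM in the libraries labelled shFer and at 161 and 162 CPM in control. The groups did not overlap, but the log2 fold change of -0.16 ± 0.12 (SE) had a 95% interval of -0.42 to 0.10 (adjusted p = 0.522, edgeR's quasi-likelihood test). With library totals alone it was at 0.00. CSF1 held 66.6% and 63.9% of all counts of the 10 members in the libraries labelled shFer, against 68.8% and 69.8% in control. All 10 together came to 223 and 220 CPM in the libraries labelled shFer and 234 and 233 CPM in control.

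**Figure D2:**
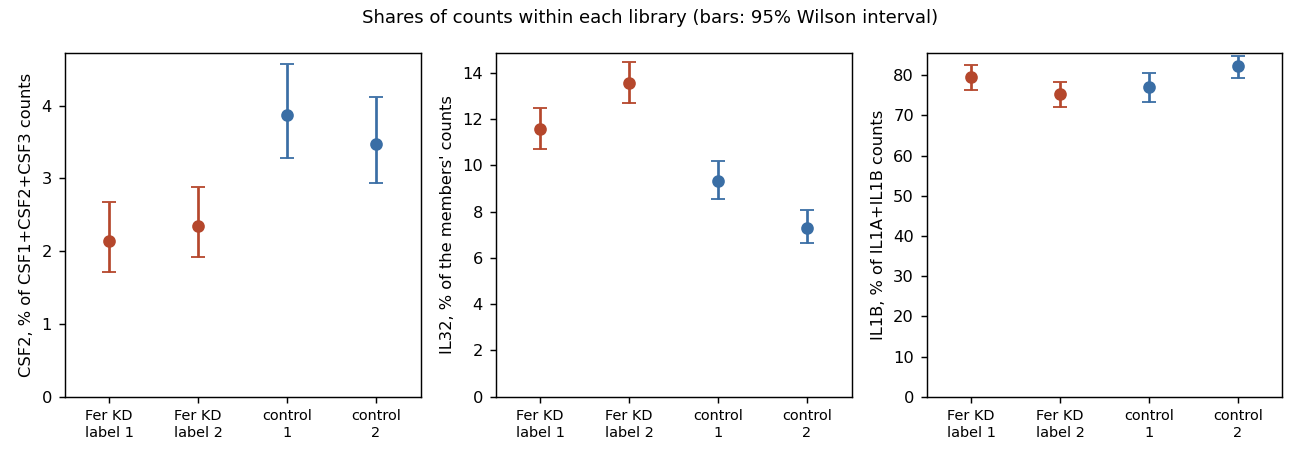
Shares of counts within each library, in percent (y axes, from 0), for CSF2 among CSF1, CSF2 and CSF3, IL32 among the 10 members, and IL1B among IL1A and IL1B. Points are libraries (red, labelled shFer; blue, control) and bars are 95% Wilson intervals; the first 2 panels separate the groups, at 2.14% and 2.35% against 3.88% and 3.48% for CSF2, and the third does not.

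IL32 had the largest positive difference among the members. It had 587 and 793 counts in the libraries labelled shFer, against 447 and 369 counts in control. The scaled values were 25.8 and 29.9 CPM in the libraries labelled shFer and 21.9 and 17.0 CPM in control, so the groups did not overlap, although the nearest libraries were about as far apart as the libraries within a group. Its log2 fold change of 0.52 ± 0.17 (SE) had a 95% interval of 0.14 to 0.90 and missed the threshold (adjusted p = 0.162, edgeR's quasi-likelihood test). Library choice moved it. A lone library left in a group was assumed to vary like the other group, so only fold changes are given for those fits. Dropping control replicate 1 took IL32 to 0.71, whereas dropping control replicate 2 brought it down to 0.33. IL32 came to 0.62 with replicate 1 labelled shFer dropped, and to 0.41 with replicate 2 labelled shFer dropped. Its share of the counts of the 10 members was 11.6% (95% Wilson interval 10.7 to 12.5) and 13.6% (12.7 to 14.5) in the libraries labelled shFer, and 9.34% (8.55 to 10.2) and 7.31% (6.63 to 8.06) in control. A small nuclear RNA pseudogene overlaps 4.02% of the exonic bases of IL32.

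IL1B and IL1A, the agonists of the IL-1 receptor, showed little difference between the groups. IL1B was at 24.1 and 22.2 CPM in the libraries labelled shFer and at 20.2 and 26.8 CPM in control, where the control values lay on either side of the others. Its log2 fold change was -0.02 (95% interval -0.41 to 0.36, adjusted p = 0.964, edgeR's quasi-likelihood test), and its sign turned without control replicate 2 (0.17), without replicate 2 labelled shFer (0.034) and with library totals alone (0.14). IL1A was at 6.16 and 7.27 CPM in the libraries labelled shFer and at 5.97 and 5.81 CPM in control, a log2 fold change of 0.19 (95% interval -0.27 to 0.65, adjusted p = 0.678). With 1 library left out it ran from 0.065 (without replicate 2 labelled shFer) to 0.30 (without their replicate 1). The interval of IL1A includes a change of the size seen for IL32, and that of IL1B does not. The balance of the agonists overlapped between the groups, as IL1B made up 79.6% and 75.3% of the summed IL1A and IL1B counts in the libraries labelled shFer, against 77.2% and 82.2% in control. Both genes held 3 AUUUA pentamers within 30 bases, where CSF2 held 5, and any part of these stretches in the levels was not tested.

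IL18, whose product induces interferon gamma, was at 13.8 and 15.5 CPM in the libraries labelled shFer and at 17.2 and 13.8 CPM in control. The groups overlapped, and the log2 fold change was -0.08 (95% interval -0.47 to 0.31, adjusted p = 0.856, edgeR's quasi-likelihood test). TSLP was near the limit of the test, with 22 and 33 counts in the libraries labelled shFer and 21 and 19 counts in control. Its log2 fold change of 0.22 had a 95% interval of -0.72 to 1.17 (adjusted p = 0.835), which includes a 2-fold increase, so at this depth such a change could not be told from none. With 1 library left out it ran from 0.025 (without replicate 2 labelled shFer) to 0.38 (without their replicate 1), and leaving out a control library gave 0.087 (replicate 2) and 0.33 (replicate 1). An uncharacterised transcript overlaps 5.37% of the exonic bases of TSLP.

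**Figure D3:**
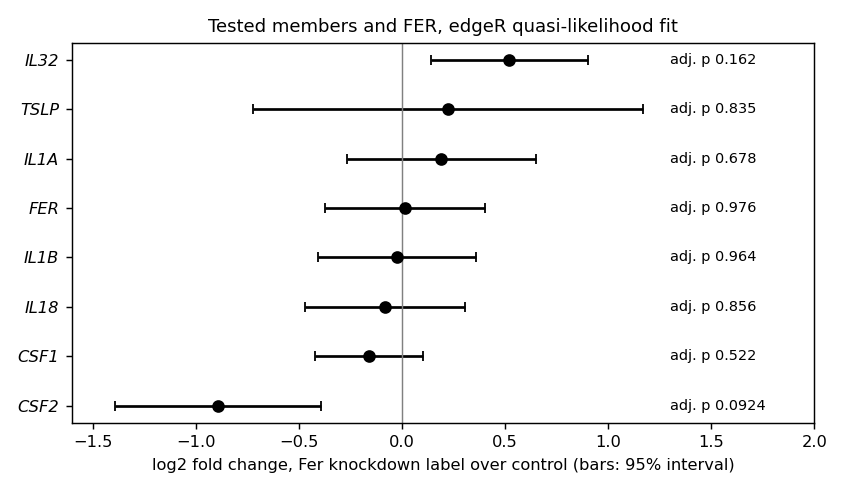
Log2 fold change of the libraries labelled shFer over control (x axis) for FER and the 7 tested members (rows), with 95% intervals and adjusted p from edgeR's quasi-likelihood test. CSF2 at -0.89 and IL32 at 0.52 are the members whose interval does not cover 0, and neither has an adjusted p below 0.05.

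IL1A and IL1B lie next to each other on chromosome 2, in a cluster with further IL-1 family genes. The next gene beyond IL1B is IL37, for an inhibitory family member, which had 25 and 19 counts in the libraries labelled shFer and 10 and 12 in control, which came to 0.78 ± 0.51 on the log2 scale (SE; adjusted p = 0.465, edgeR's quasi-likelihood test) and 0.45 without replicate 1 labelled shFer. IL36G had 2 and 7 counts in the libraries labelled shFer against 4 and 15 in control, IL36RN had 1 and 0 in the libraries labelled shFer against 0 and 0 in control, and IL36A, IL36B and IL1F10 had 0 counts throughout. Of these 6 other family cytokines only IL37 was tested. Around CSF2 on chromosome 5, the cytokine gene IL3 had 0 and 0 counts in the libraries labelled shFer and 2 and 4 in control. On the other side of CSF2, P4HA2, PDLIM4 and SLC22A4 were at log2 fold changes of 0.13, -0.42 and 0.30 (adjusted p = 0.637, 0.173 and 0.344). Beside IL32 on chromosome 16, the metalloproteinase gene MMP25 had 61 and 74 counts in the libraries labelled shFer and 29 and 20 in control, at 1.23 ± 0.35 (SE; adjusted p = 0.117). The other tested neighbours of IL32 lay on both sides of 0, with ZSCAN10 at 0.63, THOC6 at -0.05, ZNF205 at -0.20 and ZNF213 at -0.46 (adjusted p = 0.605, 0.915, 0.545 and 0.143). The neighbours were chosen by position after the values of CSF2 and IL32 were known, and no neighbour passed the threshold.

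Receptor genes for most of these cytokines had low counts. Of 9 IL-1 family receptor and decoy genes, 4 were tested, and 0 rose and 0 fell, where 0.646% of all tested genes passed. IL1R1, the signalling receptor of IL-1, had 31 and 46 counts in the libraries labelled shFer and 28 and 56 in control, while IL1R2, its decoy, had 0 in every library. The shared chain IL1RAP was at 18.6 and 18.5 CPM in the libraries labelled shFer and 18.0 and 24.7 CPM in control (log2 fold change -0.20, adjusted p = 0.599, edgeR's quasi-likelihood test). SIGIRR, an inhibitory receptor, was at 32.2 and 30.6 CPM in the libraries labelled shFer and 29.8 and 23.7 CPM in control (0.23, adjusted p = 0.483). Without control replicate 1 IL1RAP was at -0.42 and SIGIRR at 0.40. Without control replicate 2 IL1RAP was at 0.018 and SIGIRR at 0.051. Among 7 genes of the receptors for colony-stimulating factors and TSLP, with the CSF1 receptor ligand IL34, 2 were tested. The alpha chain of the GM-CSF receptor, CSF2RA, and the TSLP receptor CRLF2 had 0 counts. How reads that match several places were counted was not examined, so this does not show that these genes were silent. CSF1R had 10 and 16 counts in the libraries labelled shFer and 9 and 3 in control (0.86, adjusted p = 0.560). Leaving out control replicate 2 gave 0.23 and leaving out control replicate 1 gave 1.88, past the threshold in neither. IL7R, the partner chain of CRLF2, was at -0.04 (adjusted p = 0.931).

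Of 14 inflammasome and processing genes, 11 were tested, and 0 rose and 0 fell, where 0.646% of all tested genes passed. The inflammatory caspase CASP4 was at 60.5 and 55.8 CPM in the libraries labelled shFer and 81.7 and 80.1 CPM in control, a difference of -0.48 ± 0.13 on the log2 scale (SE; adjusted p = 0.107, edgeR's quasi-likelihood test). GSDMD, whose product forms the pores through which mature IL-1β leaves cells, was at 239 and 235 CPM in the libraries labelled shFer and 188 and 131 CPM in control, at 0.57 ± 0.16 (SE, adjusted p = 0.123). CASP1, the IL-1β converting enzyme, was at 0.12 (adjusted p = 0.713), and NLRP3 had 5 and 5 counts in the libraries labelled shFer and 14 and 7 in control. Without control replicate 1 and without control replicate 2, CASP4 was at -0.47 and -0.51 and GSDMD at 0.85 and 0.31. Both passed in DESeq2 (adjusted p = 0.0395 and 0.0461), which passed 3.78% of all genes. They also passed with no filter on low counts and with the replicate block, when 4.14% and 6.46% of all genes passed. With no filter CASP4 was close to the threshold (adjusted p = 0.0498, edgeR's quasi-likelihood test). GSDMD passed with library totals alone, as did 2.89% of all genes. The list's median was 0.00, beside 0.01 for all tested genes. CASP1 and NLRP3 were named for their roles after their values were seen.

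Of 15 genes between the IL-1 receptor and NF-kB, 14 were tested, with a median of -0.04. Among them 0 rose and 0 fell, where 0.646% of all tested genes passed. The adaptor MYD88 was at 35.1 and 34.3 CPM in the libraries labelled shFer and 46.2 and 49.9 CPM in control, a difference of -0.47 ± 0.13 on the log2 scale (SE; adjusted p = 0.120, edgeR's quasi-likelihood test). IRAK3, an inhibitor of this signalling in macrophages, had 31 and 35 counts in the libraries labelled shFer and 11 and 12 in control, at 1.29 ± 0.44 (SE, adjusted p = 0.176). Both genes separated the groups without overlap, as did 49.2% of all tested genes, and both were named for the smallest p of their list. MYD88 was at -0.53 without control replicate 1 and at -0.44 without control replicate 2.

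IL-1 responsive genes of epithelium lay mostly above control. Of 19, 16 were tested, of which 1 rose and 0 fell, while 0.280% of all tested genes rose. The gene that rose was SAA1, an acute-phase protein, at 8.67 and 7.30 CPM in the libraries labelled shFer and 3.37 and 2.12 CPM in control. Its log2 fold change was 1.54 ± 0.26 (SE, adjusted p = 0.0378, edgeR's quasi-likelihood test), and it ran from 1.22 to 1.90 with 1 library left out. SAA2 is a near-identical copy of SAA1, so the split of reads between them is uncertain. In all, 14 of the 16 had a log2 fold change above 0, as did 51.9% of all tested genes, and 8 were higher at an unadjusted p under 0.05, as were 8.95% of all tested genes, with 0 lower. The median was 0.33, and 0.50 with library totals alone as the scale, when 0.18 was the value over all genes. Without control replicate 1 the count above 0 was 11 and the median 0.24, and without control replicate 2 they were 14 and 0.54. The count above 0 was 13 in DESeq2, and 11 of 14 tested with the 5 CPM filter. ICAM1 (0.006) and NFKBIA (0.012) were barely above 0, and CCL2 was at -0.08. These genes were named after their values were seen. The number past the threshold moved with the setting. In either direction it was 3 in DESeq2, and it was 4 with library totals alone, with no filter on low counts and with the replicate block. Over all genes, 99 passed in either direction in edgeR's test as first given. Of all genes, 580 passed in DESeq2, 443 with library totals alone, 993 with no filter and 990 with the block. The list was written with earlier results of these data known, so it is a description.

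**Figure D4:**
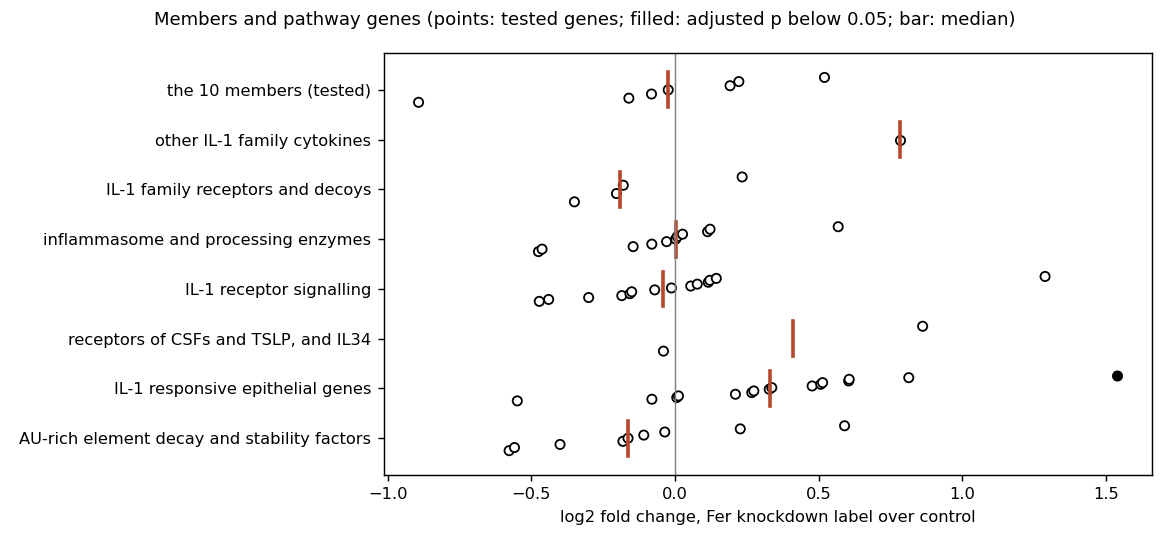
Log2 fold change of the libraries labelled shFer over control (x axis) for the tested members and the tested genes of 7 pathway lists (rows). Points are genes, filled where the adjusted p is below 0.05, and red bars are medians; the only filled point is SAA1, and the row of IL-1 responsive genes has a median of 0.33.

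Of 9 factors of AU-rich mRNA decay and stability, all were tested, and the median was -0.16. Among them 0 rose and 0 fell, where 0.646% of all tested genes passed. ZFP36 was at 65.7 and 81.2 CPM in the libraries labelled shFer and 78.6 and 141 CPM in control, a difference of -0.58 ± 0.23 on the log2 scale (SE; adjusted p = 0.239, edgeR's quasi-likelihood test). Without control replicate 2 it was -0.12, and without control replicate 1 it was -0.94. RC3H2, which encodes a relative of the mRNA decay factor Roquin, was at 45.8 and 49.6 CPM in the libraries labelled shFer and 30.2 and 33.2 CPM in control. Its log2 fold change was 0.59 ± 0.14 (SE, adjusted p = 0.0797, edgeR's quasi-likelihood test), with 0.52 without control replicate 1 and 0.64 without control replicate 2. The groups overlapped for ZFP36. RC3H2 passed in DESeq2 (adjusted p = 0.0198), as did 3.78% of all genes. Both genes passed with no filter on low counts and with the replicate block, when 4.14% and 6.46% of all genes passed. Adjusted p with the block was 0.00902 for RC3H2 and 0.0189 for ZFP36 (edgeR). With library totals alone 5 of the 9 were above 0 in place of 2. RC3H2 then passed the threshold (0.75, edgeR, adjusted p = 0.0340), as did 2.89% of all genes.

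**Figure D5:**
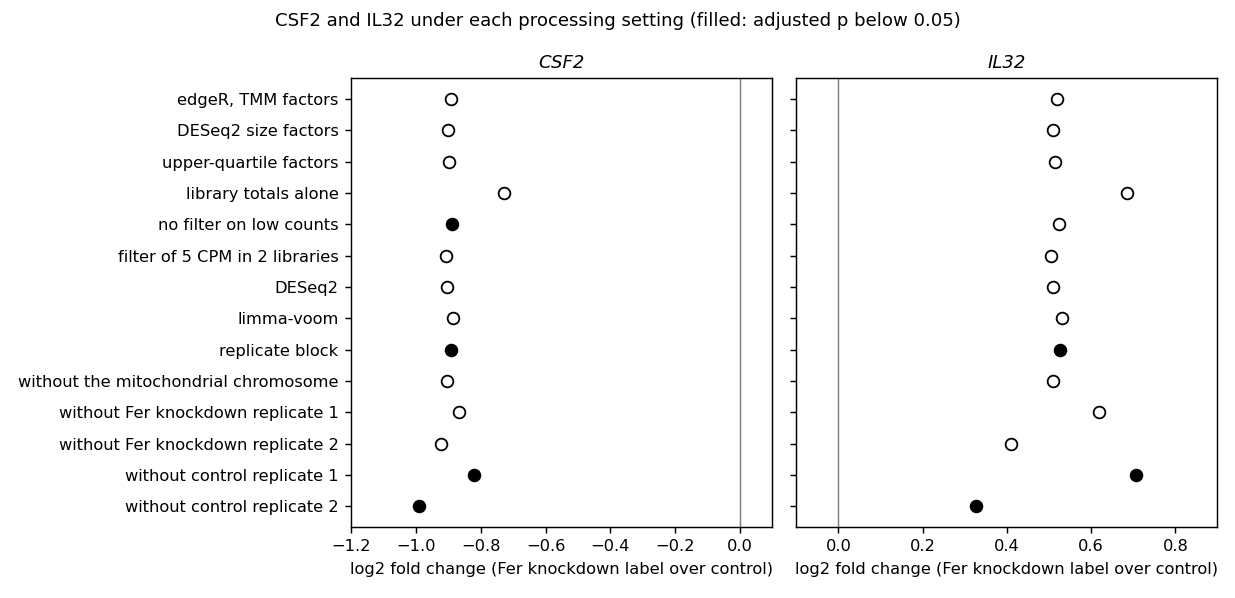
Log2 fold change of CSF2 and IL32 (x axes) under each processing setting (rows), filled where the adjusted p was below 0.05. CSF2 stays between -0.99 and -0.73 and IL32 between 0.33 and 0.71. Both are filled with either control library left out and with the replicate number as a block. With a control library left out, the lone control was assumed to vary like the other group.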

How the data were processed

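The authors deposited raw read counts per gene for the 4 libraries, with gene lengths. HISAT2, featureCounts and DESeq2 and the builds hg19 and mm10 are named, without versions or roles, per the submitters' processing notes; strand setting and annotation release: not given in the sources used here. A shFer column, numbered 1, has a shortened name and was matched as the only such library with that number. An empty entry was left out. Counts were filtered (filterByExpr, 15336 genes left), scaled by TMM factors and tested with edgeR 4.0.16 in R 4.3.3 (quasi-likelihood, two-sided, 2 residual degrees of freedom), with Benjamini-Hochberg adjustment over all tested genes at 0.05. CPM use these scaled library sizes, and RPKM divide them by the deposited lengths. Alternatives were DESeq2 1.42.0, limma-voom 3.58.1, other scalings and filters, the replicate number as a block, no mitochondrial chromosome, and each library left out; a lone library was then assumed to vary like the other group. Fits were tested on simulated data. Exon overlaps, on either strand, gene neighbours and 3′ untranslated regions came from GENCODE release 29, of another build than hg19. The members, 10 lists and the tests were chosen with earlier results of these data known. Named genes were FER, the members, and from each list up to 4 genes past the threshold or, with none, the 2 of smallest p; others are said to be chosen later or are counted by role.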

Additional observations from a re-analysis of the deposited data

How the results depend on the processing

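The count of all genes past the threshold was 99, and it was 192 with upper-quartile factors, 443 with library totals alone, 993 with no filter on low counts, 580 in DESeq2 and 178 in limma-voom. Leaving out 1 library gave between 56 (without shFer replicate 2) and 4734 (without control replicate 1). With the replicate number as a block it was 990; replicate numbers are not stated to mark a shared culture or day, and deviations of same-numbered libraries correlated at 0.0373 over genes. Members past the threshold numbered 0 in edgeR's quasi-likelihood test, but 1 with no filter (CSF2, adjusted p = 0.0136), when 4.14% of all genes passed. With the replicate block they numbered 2 (CSF2, adjusted p = 0.0193, and IL32, adjusted p = 0.0419), when 6.46% of all genes passed. Library totals alone turned the sign of IL1B (0.14), IL18 (0.083), CSF1 (0.0038) and IL7R (0.12), and the 5 CPM filter turned PDGFRB (-0.0054). With 1 library left out, log2 fold changes ran from -0.16 to 0.19 for FER, -0.22 to 0.17 for IL1B, -0.26 to 0.082 for IL18, -0.18 to 0.084 for IL7R, -0.42 to 0.018 for IL1RAP, -0.58 to 0.083 for CD14 and -0.15 to 0.16 for PDGFRB. The causes were not tested. Without the mitochondrial chromosome CSF2 was at -0.90 and IL32 at 0.51. Depth limits IL1RN, IL33, CSF3 and TSLP.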
